A study of Mus musculus with 10 samples.

Results

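The guanylate-binding proteins (GBPs) and the immunity-related GTPases (IRGs) are 2 families of interferon-induced enzymes that bind and cleave GTP. The 10 genes described here, Gbp2, Gbp3, Gbp5, Gbp7, Gbp8, Gbp9, Igtp, Irgm1, Irgm2 and Iigp1, were the rows of the deposited count table whose gene name equals 1 of these symbols, and all 10 were found among 40789 genes. RNA was sequenced from cortical microglia, which are brain-resident macrophages, of female C57BL6/J mice aged 2 to 3 months and of the genotype CX3CR1+/egfp. In every mouse of both groups, 1 copy of the fractalkine receptor gene thus carries a green fluorescent reporter, and cells with high fluorescence were sorted. The LPS group (n = 5 mice) received 4 mg/kg lipopolysaccharide, a component of the outer membrane of Gram-negative bacteria, into the peritoneum, and the control group (n = 5 mice) received saline. All mice were killed 24 h later, and each library came from 1 mouse. Mice are numbered 1 to 5 within a group, and the number is only a name.

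GBPs assemble on the vacuoles in which microbes live and on bacteria in the cytosol, where they help to expose bacterial LPS to the protease caspase-11. Among the IRGs, Irgm1, Irgm2 and Igtp (also called Irgm3) are regulators that sit on the membranes of the cell itself and keep the effector IRGs, such as Iigp1 (also called Irga6), from loading there. Interferons drive the transcription of both families through promoter elements such as interferon-stimulated response elements and gamma-activated sites.

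Promoter sequence was looked at first because 2 neighbouring IRG genes on chromosome 11, Igtp and Irgm2, changed in opposite directions after LPS. In the RefSeq table of GRCm38.p6, 7 of the 10 genes had a promoter window, and the 250 bases before the start were searched on both strands. The letters searched were TTTCNNTTT for the core of an interferon-stimulated response element, TTCNNNGAA for a gamma-activated site and GGNNTTTCC for a kappa B site. They were found in 9.37%, 7.02% and 4.93% of all 32851 windows of that length, and the first 2 motifs together in 0.889%. The response element core was present in the first window of each of the 7 genes, and the gamma-activated site in those of Gbp5, Gbp7, Igtp and Irgm2. The kappa B letters were found in Gbp5 alone among the 7. A second start of Gbp3 held none of the 3 motifs. The stretches below are shown because they hold the matches of 3 genes that rose (Gbp2, Gbp7 and Irgm1), of the opposed pair, and of a gene with no detected change (Gbp5). They end at the base before the start, read 5′ to 3′ on the strand of the gene, with motif matches in capitals.
Gbp2, chr3:142620543-142620662, plus strand: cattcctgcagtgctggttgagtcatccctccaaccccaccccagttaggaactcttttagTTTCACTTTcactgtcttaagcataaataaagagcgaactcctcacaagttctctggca
Gbp7, chr3:142530216-142530335, plus strand: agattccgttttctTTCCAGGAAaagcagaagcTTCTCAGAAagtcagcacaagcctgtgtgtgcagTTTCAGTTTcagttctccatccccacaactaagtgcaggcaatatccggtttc
Gbp5, chr3:142496684-142496933, plus strand: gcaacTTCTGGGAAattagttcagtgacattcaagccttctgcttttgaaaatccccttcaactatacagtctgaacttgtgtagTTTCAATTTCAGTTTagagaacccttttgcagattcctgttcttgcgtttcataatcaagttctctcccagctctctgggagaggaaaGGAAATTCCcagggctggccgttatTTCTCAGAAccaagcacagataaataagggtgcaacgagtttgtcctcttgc
Irgm1, chr11:48871421-48871540, minus strand: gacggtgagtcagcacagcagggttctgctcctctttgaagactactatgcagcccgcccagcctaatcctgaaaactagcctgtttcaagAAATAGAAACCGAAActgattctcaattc
Igtp, chr11:58199436-58199555, plus strand: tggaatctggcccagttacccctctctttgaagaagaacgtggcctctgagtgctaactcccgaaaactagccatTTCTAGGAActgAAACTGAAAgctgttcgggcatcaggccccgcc
Irgm2, chr11:58214857-58214976, plus strand: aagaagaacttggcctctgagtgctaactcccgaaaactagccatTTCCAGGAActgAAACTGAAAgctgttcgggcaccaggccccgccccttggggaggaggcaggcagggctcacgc

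The windows of Igtp and Irgm2 were the most alike. Set against each other at an offset of 30 bases and without gaps, the last 90 bases before the Igtp start and the first 90 of the Irgm2 stretch were identical at 87 positions (96.7%). Over the full windows the pair matched at 134 of 220 bases (60.9%), beside 30.0% to 38.8% for the other 20 pairs of windows at their best offset. In Igtp the gamma-activated site began 45 bases and the response element core 33 bases before the start, and in Irgm2 they began 75 and 63 bases before it. A letter match is a description and not evidence of binding.

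After LPS, 6 of the 10 genes were higher, 1 was lower and 3 did not pass the test (edgeR, adjusted p below 0.05 over 13793 genes). Higher were Gbp2, Gbp3, Gbp7, Igtp, Irgm1 and Iigp1, and lower was Irgm2. Iigp1, like the uncalled Gbp8, had enough counts to be tested only with its LPS libraries, so its place in the count is a description. Of all genes tested 22.4% were called higher and 22.5% lower. The median log2 fold change was 0.93 over the 10 genes and 0.0014 over all genes tested. In 4 of the 10 genes (Gbp2, Gbp3, Igtp and Irgm1) every LPS mouse was above every saline mouse, a pattern found in 14.1% of all genes tested. In none of the 10 was every LPS mouse below every saline mouse, which held for 15.7% of all genes tested. RNA was measured in bulk, so fewer cells with a transcript and less transcript per cell cannot be told apart. Values below are CPM, read counts scaled to a common library size with TMM factors. They compare 1 gene between mice, while levels of different genes are compared per length further on.

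**Figure D1:**
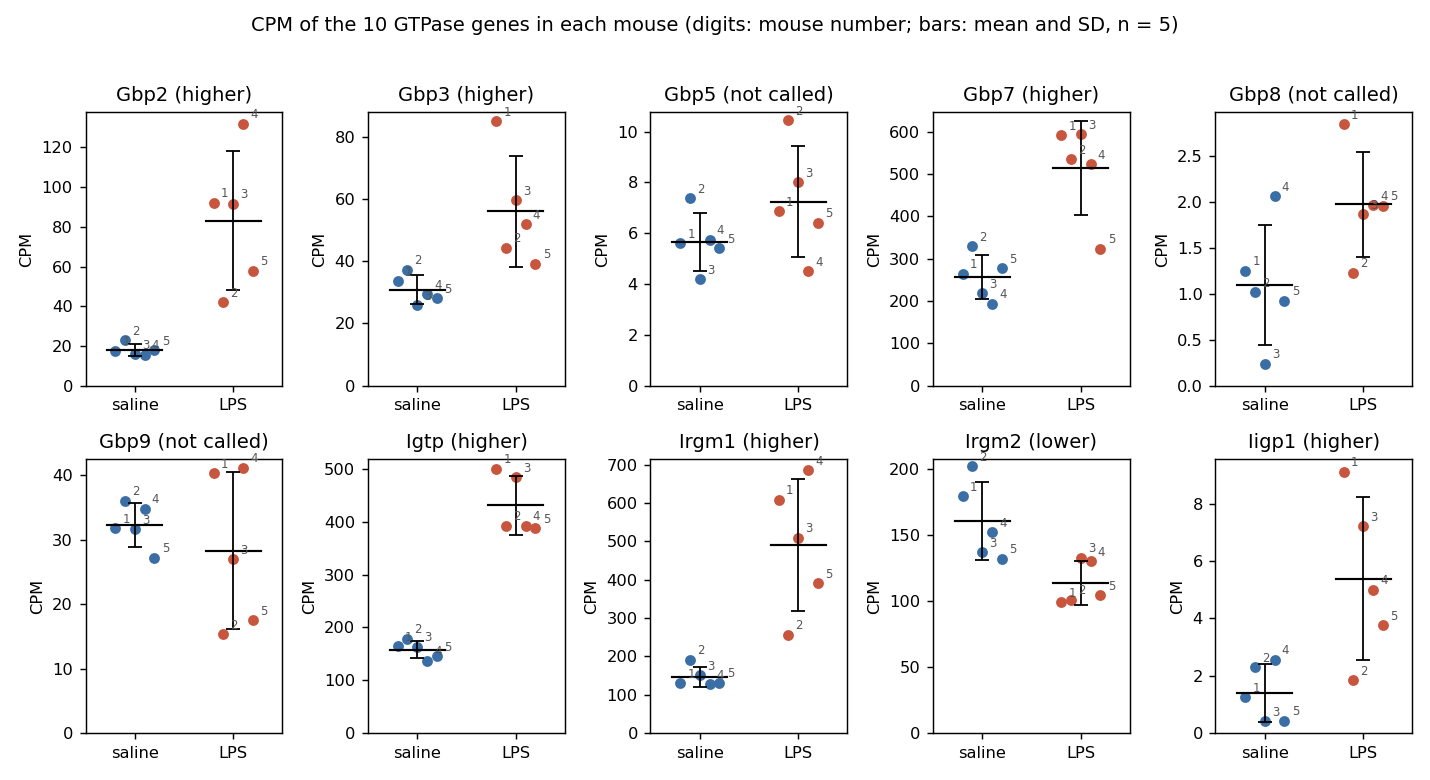
CPM (y axes, from 0) of each of the 10 genes in the 5 saline and 5 LPS mice. Points are mice, with their number, and black bars show the mean and SD. The groups are apart for Gbp2, Gbp3, Igtp and Irgm1, and Irgm2 is the gene with a called fall.

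Among the regulators, Igtp, which sits on the endoplasmic reticulum and on lipid droplets, showed the tightest response. It measured 164, 179, 163, 137 and 146 CPM in saline mice 1 to 5 and 500.4, 392, 485, 392 and 388 CPM in LPS mice 1 to 5. The lowest LPS mouse was thus above the highest saline mouse by more than the spread of either group. The rise was 2.74-fold (log2 fold change 1.45 ± 0.11 SE, adjusted p = 2.1e-06). Igtp lies at chr11:58199556-58207592.

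Irgm1, which acts on lysosomes, the Golgi apparatus and mitochondria and whose loss impairs resistance to mycobacteria, measured 129 (mouse 1), 191, 150.2, 127 and 131 CPM in saline. In LPS mice 1 to 5 it measured 609, 257, 509.9, 686 and 391 CPM. All LPS mice were above all saline mice, but they spread over a 2.67-fold range, with LPS mouse 2 lowest and LPS mouse 4 highest. Irgm1 rose 3.37-fold (log2 fold change 1.75 ± 0.28, adjusted p = 4.5e-05). It lies at chr11:48865245-48871420 on the minus strand, far from the Igtp and Irgm2 pair on the same chromosome.

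Irgm2, a regulator known to restrain caspase-11 responses to LPS, went the other way. Saline mice 1 to 5 had 179, 202, 137, 152 and 132 CPM, and LPS mice 1 to 5 had 99.1, 101, 133, 130.2 and 104 CPM. Only LPS mouse 3 lay above the lowest saline mouse, mouse 5. The fall was 1.41-fold (log2 fold change -0.50 ± 0.15, adjusted p = 0.017). Without saline mouse 2, the highest, the call was lost (log2 fold change -0.40, adjusted p = 0.0503), while the direction was negative in all 23 alternative fits, from -0.58 to -0.36. Irgm2 lies at chr11:58214977-58222783, next to Igtp. RefSeq models of the 2 genes do not overlap, but in GENCODE M21 they share 162 exonic bases, 8.01% of those of Igtp and 4.39% of those of Irgm2. No source used here states the annotation or the use of strand behind the counts, so reads from shared stretches could have gone to either gene.

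The effector IRG among the 10, Iigp1, which coats and helps to rupture vacuoles of intracellular parasites, was near the lower end of what the libraries could measure. It had 19, 27, 5, 41 and 6 reads in saline mice 1 to 5, or 1.25, 2.29, 0.404, 2.56 and 0.427 CPM. LPS mice had 109, 24, 93, 79 and 48 reads, or 9.12, 1.84, 7.22, 5.01 and 3.76 CPM. LPS mouse 2 was below saline mice 2 and 4, and the other LPS mice were above all saline mice. The rise was 3.85-fold (log2 fold change 1.95 ± 0.63, adjusted p = 0.0088). With so few reads in saline mice 3 and 5, Iigp1 had enough counts to be tested only with its LPS libraries, so its call is a description. Iigp1 lies at chr18:60373616-60392634.

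Among the GBPs, Gbp2 rose most. This prenylated GBP is one of those that gather first around vacuoles of Toxoplasma. Saline mice 1 to 5 had 17.6, 22.8, 15.8, 15.7 and 17.9 CPM, and LPS mice 1 to 5 had 92.1, 42.1, 91.6, 132 and 57.8 CPM. The groups did not overlap, and the LPS mice spread over a 3.13-fold range against 1.45-fold in saline. The rise was 4.62-fold (log2 fold change 2.21 ± 0.30, adjusted p = 1.5e-05). Gbp2 lies at chr3:142620663-142638008, in the gene cluster that also holds Gbp5, Gbp7 and Gbp3.

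Gbp7 and Gbp3 both rose, and the ratio of the 2 did not change detectably (log2 ratio of Gbp3 over Gbp7 -0.18 in LPS relative to saline, exact permutation p = 0.31, adjusted p = 0.367). Gbp7, a GBP of the same cluster (chr3:142530336-142550151), measured 265, 329, 218, 194 and 278 CPM in saline mice and 591, 535, 594, 524 and 323 CPM in LPS mice 1 to 5. LPS mouse 5 stood apart below the other LPS mice and just under saline mouse 2. Gbp7 rose 2.00-fold (log2 fold change 0.999 ± 0.21, adjusted p = 0.00073). Gbp3 (chr3:142560016-142573213) measured 33.7, 37.3, 25.9, 29.3 and 28.1 CPM in saline mice and 84.8, 44.3, 59.5, 51.8 and 39.2 CPM in LPS mice, with no overlap. Its rise was 1.81-fold (log2 fold change 0.86 ± 0.21, adjusted p = 0.0028).

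Gbp5, a prenylated GBP known to promote inflammasome activity, did not pass the test. Its promoter window held more motif matches than those of the other 6 genes, and a link of matches to change was not tested. Gbp5 had 52 to 92 reads per library in saline and 71 to 136 in LPS. Its level was 5.60, 7.38, 4.20, 5.74 and 5.41 CPM in saline mice and 6.86, 10.4, 7.997, 4.50 and 6.42 CPM in LPS mice 1 to 5. The groups overlapped, and LPS mouse 2, the lowest LPS mouse for Gbp2 and Irgm1, was the highest for Gbp5. The log2 fold change was 0.35 ± 0.23 (adjusted p = 0.26). Gbp5 lies at chr3:142496934-142522344.

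Gbp8 and Gbp9 lie beside each other on chromosome 5, at chr5:105012513-105053609 and chr5:105076464-105110357, and neither passed the test. Gbp8 had 3 to 33 reads per library in saline and 16 to 34 in LPS, or 1.25, 1.02, 0.242, 2.06 and 0.926 CPM against 2.84, 1.23, 1.86, 1.96 and 1.96 CPM. Its log2 fold change was 0.82 ± 0.45 (adjusted p = 0.16), and saline mouse 3, at 0.242 CPM, lay far below saline mouse 4, at 2.06 CPM. Gbp9 had 31.8, 36.1, 31.6, 34.8 and 27.2 CPM in saline mice and 40.3, 15.4, 27.0, 41.2 and 17.5 CPM in LPS mice 1 to 5. LPS mice 2, 3 and 5 were below all saline mice and LPS mice 1 and 4 above all of them. The log2 fold change of Gbp9 was -0.19 ± 0.30 (adjusted p = 0.55), and it was 0.17 with the gene-length trend of each library removed. In GENCODE M21 the models of Gbp8, Gbp9 and Gbp4 share 60 or 61 exonic bases, and near-identical relatives make counts in this cluster uncertain.

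**Figure D2:**
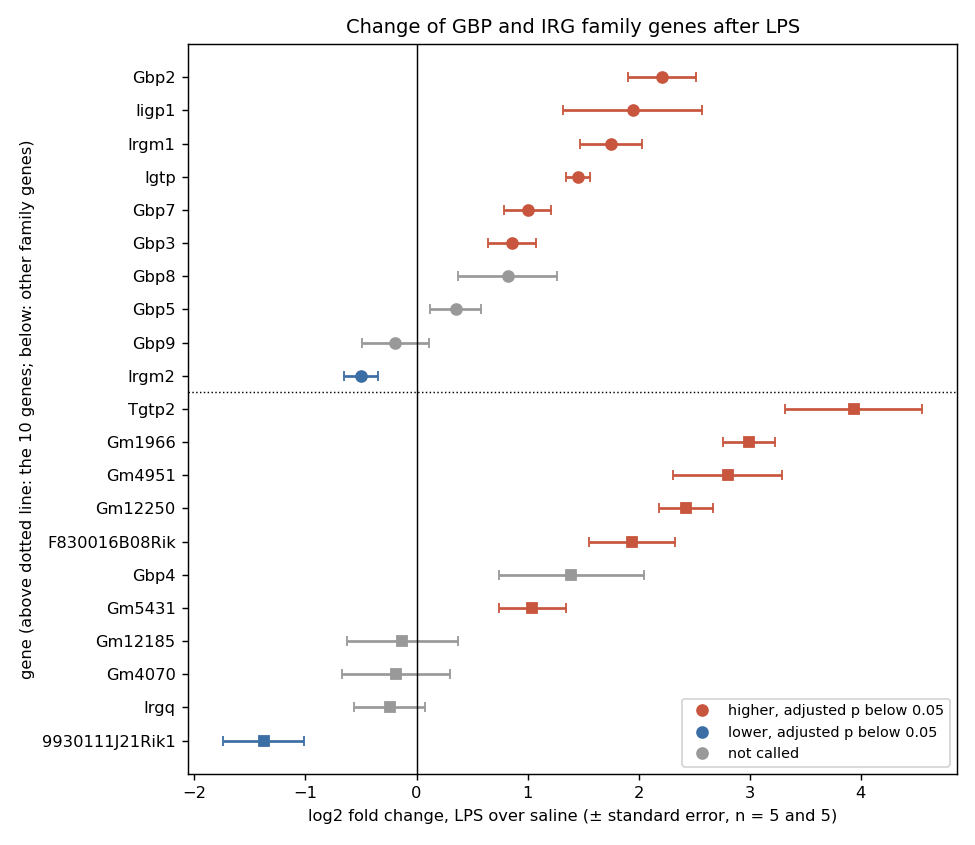
Log2 fold change, LPS over saline, with its standard error (x axis) for the 10 genes and for 11 tested relatives (y axis). Gm1966 and Gm4070 among the relatives are neither GBPs nor IRGs. Colours show the call of the edgeR test. Gbp2 leads the 10 at 2.21 and Irgm2 ends them at -0.50, and among the relatives Tgtp2 leads at 3.94.

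To see which of the 10 genes changed by unlike folds, ratios of 2 genes within a mouse were compared, since such a ratio does not depend on the scaling of the library. Of 45 pairs, 23 had a changed ratio (exact two-sided permutation test, adjusted over the 45 pairs, adjusted p from 0.0223 to 0.0466). The pairs share the 10 genes and are not separate results, and pairs of other genes were not compared. For 5 against 5 mice the smallest exact permutation p is 0.00794, which 16 pairs reached. For Igtp over Irgm2 the CPM ratio, which is not per length, was 0.915, 0.886, 1.19, 0.903 and 1.10 in saline mice 1 to 5. In LPS mice 1 to 5 it was 5.05, 3.89, 3.66, 3.01 and 3.73, so every LPS mouse was above every saline mouse. The ratio rose by 1.94 on the log2 scale (exact permutation p = 0.00794, adjusted p = 0.0223). For Irgm1 over Irgm2 the ratio ran from 0.723 to 1.10 in saline and from 2.55 to 6.15 in LPS, a rise of 2.18 on the log2 scale with the same exact permutation p. Irgm2 and Gbp9 each took part in 7 changed pairs of 9, Gbp2 in 6, and Gbp8 and Iigp1 in 2 each. Between Gbp9 and Irgm2 the log2 ratio differed by 0.19, with no detectable change (exact permutation p = 0.532, adjusted p = 0.584).

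**Figure D3:**
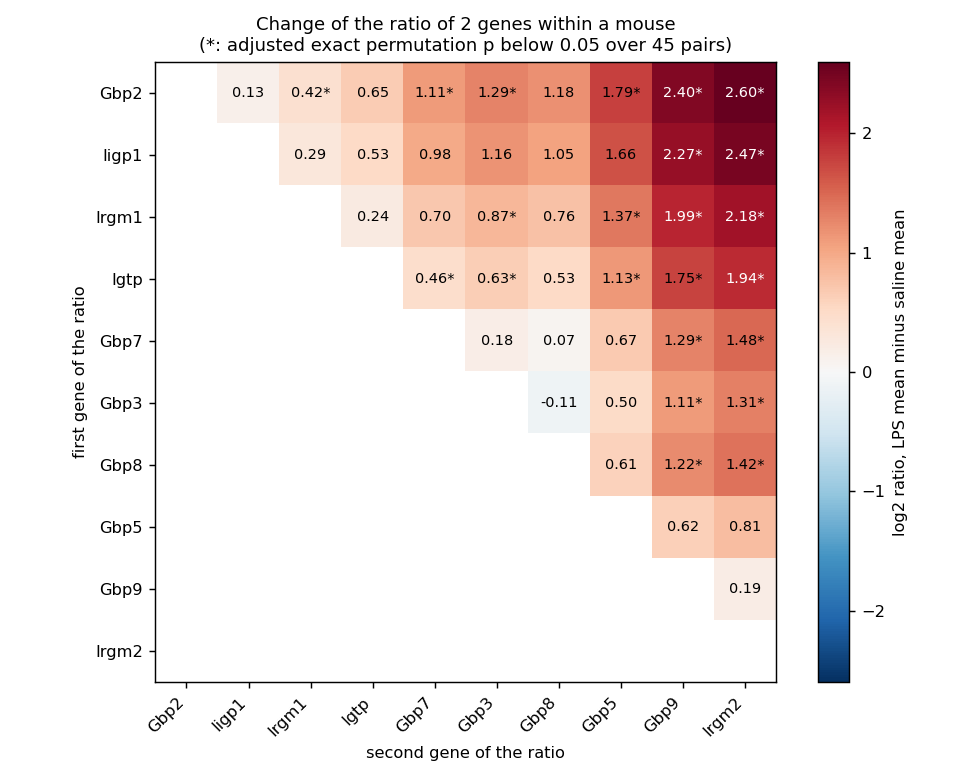
Each cell gives the difference between LPS and saline means of the log2 ratio of the row gene over the column gene within a mouse, with genes in order of their fold change, and stars mark the 23 of 45 pairs that passed the exact permutation test after adjustment. The columns of Gbp9 and Irgm2 hold 7 stars each.

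Some ratios were steady across the LPS mice although the genes themselves were not. Gbp2 over Irgm1 was 0.151, 0.164, 0.180, 0.192 and 0.148 in LPS mice 1 to 5, against 0.136, 0.120, 0.105, 0.124 and 0.137 in saline. It rose by only 0.42 on the log2 scale, yet with no overlap (exact permutation p = 0.00794, adjusted p = 0.0223). Gbp2 over Gbp9 ran from 2.28 to 3.39 in LPS and from 0.452 to 0.660 in saline. Gbp9 over Irgm1 ran from 0.0448 to 0.0662 in LPS and from 0.189 to 0.275 in saline. Gbp9 thus stood lower and higher in the same LPS mice as Gbp2 and Irgm1 while its group mean did not differ detectably from saline. Gbp2 over Gbp5 ran from 4.03 in LPS mouse 2 to 29.3 in LPS mouse 4, against 2.74 to 3.77 in saline.

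LPS mouse 2 was the lowest of the 5 LPS mice for 5 of the 10 genes, Gbp2, Gbp8, Gbp9, Irgm1 and Iigp1, and LPS mouse 5 was the lowest for Gbp3, Gbp7 and Igtp. How many of all genes tested were lowest in LPS mouse 2 was not counted, so such counts do not set the GTPase genes apart. On the log2 scale, LPS mouse 2 was 0.87 below the mean of the LPS mice for Gbp2, 0.85 below it for Irgm1 and 1.29 below it for Iigp1. It was 0.13 below it for Igtp. Of the 11 relatives tested, 7 were lowest in that mouse, and so were Stat2, Irf7 and, narrowly, Irf1 (309.5 CPM against 311.7 CPM in LPS mouse 1). Other interferon genes differed: Irf9 and Ifngr1 were lowest in LPS mouse 5, and Irf8 was highest in LPS mouse 2 (216 CPM). Without LPS mouse 2, Gbp2 rose 5.21-fold, Irgm1 3.78-fold and Iigp1 4.49-fold, and the calls of the 10 genes were as with it. The summed level of 8 monocyte markers was also lowest in LPS mouse 2 among the LPS mice, at 78.1 CPM against 126 to 219.7 CPM in the other 4. The members of that list differed: Ms4a4c made up 45.6 CPM of the sum in LPS mouse 2, Fn1 was lowest in LPS mouse 1, and Ccr2 was second highest in LPS mouse 2 (3.53 CPM). Their part in the result was not tested.

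**Figure D4:**
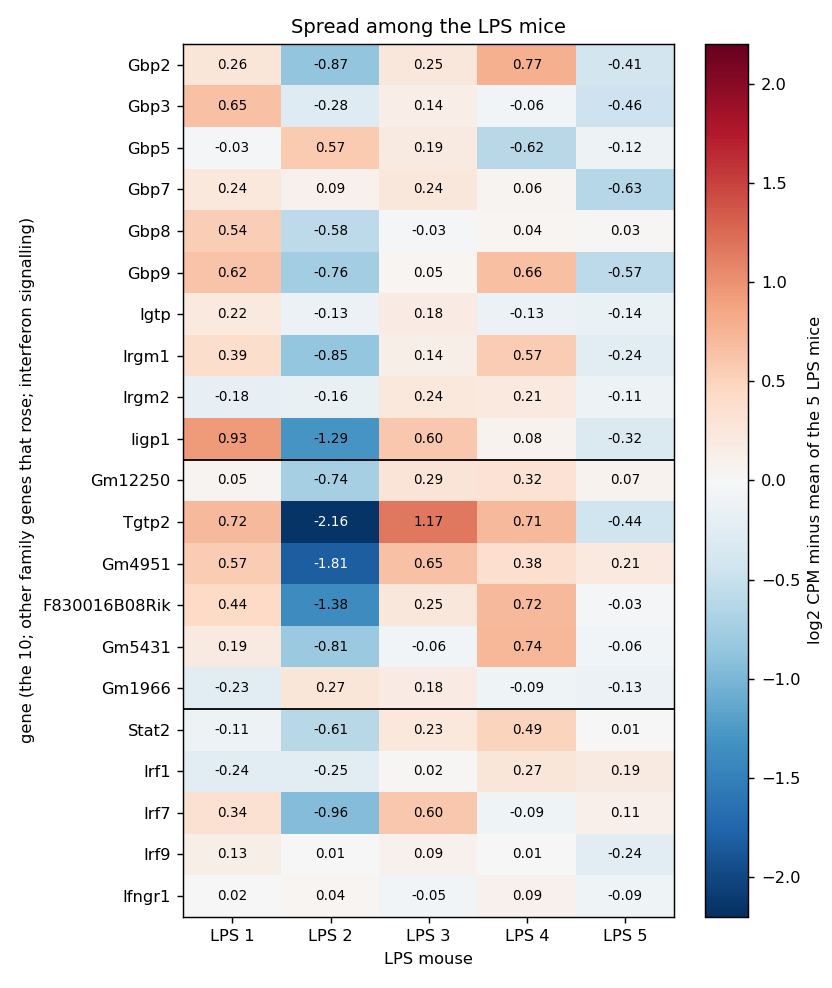
Log2 CPM of each LPS mouse (columns) minus the mean of the 5 LPS mice, for the 10 genes, for 6 relatives that rose and for 5 genes of interferon signalling (rows). LPS mouse 2 is low for Gbp2, Irgm1 and Iigp1 and high, at 0.57, for Gbp5.

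Levels between genes were compared in the deposited RPKM values, which are per gene length. In saline the order by mean was Igtp (77.3 ± 8.95 RPKM, SD, n = 5), Irgm1 (56.5 ± 11.03), Gbp7 (45.3 ± 9.79), Irgm2 (45.2 ± 8.47), Gbp3 (10.1 ± 1.505), Gbp2 (7.26 ± 1.23), Gbp9 (5.69 ± 0.580), Gbp5 (1.86 ± 0.377), Iigp1 (0.396 ± 0.286) and Gbp8 (0.246 ± 0.140). The ranges of the first 4 overlapped from 1 to the next, as did those of Gbp3, Gbp2 and Gbp9 and those of Iigp1 and Gbp8. Gaps without overlap lay between Irgm2 and Gbp3, between Gbp9 and Gbp5, and between Gbp5 and Iigp1. Microglia of saline mice thus held RNA of the 3 regulators and Gbp7 at a level well above the other GBPs.

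In LPS mice Igtp (215.8 ± 28.3 RPKM) and Irgm1 (193 ± 65.9) led, with overlapping ranges, followed by Gbp7 (92.3 ± 19.8). Gbp2 (34.1 ± 13.9 RPKM) rose from sixth to the level of Irgm2 (32.6 ± 4.43), and their ranges overlapped. Below them stood Gbp3 (18.6 ± 5.99), Gbp9 (5.08 ± 2.16), Gbp5 (2.43 ± 0.750), Iigp1 (1.58 ± 0.839) and Gbp8 (0.454 ± 0.132). Gaps without overlap lay between Gbp7 and Gbp2, between Irgm2 and Gbp3 and between Gbp3 and Gbp9. The RPKM of the 10 genes summed to 249.7 ± 37.1 in saline and 596 ± 112 in LPS. Irgm2 made up 18.1% ± 1.82 of that sum in saline, from 16.1% to 19.9%, and 5.58% ± 0.913 in LPS, from 4.05% to 6.28%. The share of Gbp2 was 2.91% ± 0.168 in saline and 5.56% ± 1.54 in LPS.

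**Figure D5:**
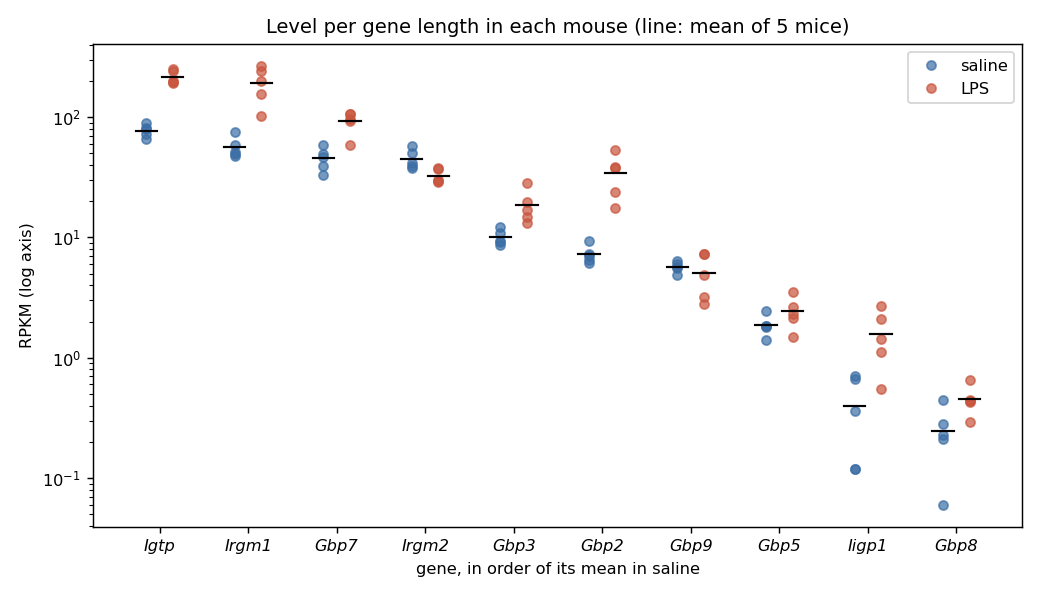
RPKM on a log axis (y) of each gene in each mouse, with genes in the order of their saline mean (x) and lines at the group means. Igtp leads in both groups, Irgm2 is lower in LPS, and Gbp2 moves up to the level of Irgm2.

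A list of relatives of the 10 held 21 other genes, and 11 of them had enough counts to be tested. Gvin1, Gm17757, Gm4070 and Gm1966 on this list are very large inducible GTPases or their relatives, and not GBPs or IRGs. Of these Gm4070 and Gm1966 were tested and are in the counts below. Of the 11 tested, 6 were higher, 1 was lower and 4 did not pass, beside 22.4% higher and 22.5% lower over all genes tested. The median log2 fold change was 1.39, beside 0.0014 over all genes tested. Genes that reached the test only through their level in LPS had to differ, so the count of relatives called is a description. Tgtp2, a GTPase gene of the IRG family, stood at 0.384 ± 0.116 CPM in saline and 6.04 ± 3.85 in LPS (15.3-fold, adjusted p = 9.6e-05), with LPS mouse 2 at 0.922 CPM. Its near-identical copy Tgtp1 had 5 and 7 reads in all of saline and LPS, so the split between the copies is uncertain. Gm12250, the gene of the IRG effector Irgb10, lies next to Igtp and averaged 33.1 ± 7.58 CPM in saline and 178 ± 44.9 in LPS (5.38-fold, adjusted p = 1.2e-06).

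Gm4951 rose from 13.3 ± 3.85 to 92.6 ± 41.1 CPM (adjusted p = 3.5e-05) and F830016B08Rik from 2.40 ± 0.487 to 9.18 ± 3.98 CPM (adjusted p = 0.00045). Gm1966 rose from 2.72 ± 0.9999 to 21.6 ± 3.23 CPM (adjusted p = 5.6e-07), and unlike most relatives it was highest in LPS mouse 2. Gm5431 rose 2.06-fold (adjusted p = 0.0086). The relative that fell was 9930111J21Rik1, from 10.3 ± 1.34 to 3.94 ± 2.83 CPM (adjusted p = 0.0056), with LPS mouse 4 at 8.94 CPM and the other LPS mice at or below 3.42 CPM. Gbp4 went from 0.636 ± 0.232 to 1.69 ± 1.36 CPM without passing (adjusted p = 0.077), and it passed without LPS mouse 2 (log2 fold change 1.69, adjusted p = 0.015). Irgq, Gm12185 and Gm4070 had log2 fold changes between -0.24 and -0.13 and did not pass. Of the GBPs not tested, Gbp2b had 2 reads over all saline mice and 4 over all LPS mice, Gbp6 had 8 and 32, Gbp10 had 0 and 1, and Gbp11 had 1 and 4.

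Genes that induce the GTPases were taken from lists. Of 4 interferon receptor genes 1 was higher, beside 22.4% of all genes tested. It was Ifngr1, which binds interferon gamma, at 2421 ± 204 CPM in saline and 3431 ± 170 CPM in LPS (adjusted p = 0.0038). Removing the trend over gene length ended its call (adjusted p = 0.056). Its partner Ifngr2 had 156 ± 22.3 and 165 ± 21.9 CPM (adjusted p = 0.66). Of the ligands, Ifng, Ifna1, Ifna2, Ifna4 and Ifna5 had no read in any library, which allows up to 0.0445 CPM over the saline group and 0.0438 CPM over the LPS group. These limits, set at 3 reads, cover counting error only. Ifnb1 had 18 reads over all saline mice and 33 over all LPS mice and was not tested. Of the 33 reads 25 were in LPS mouse 1, and 8 were left over the LPS group without it.

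Of 11 tested genes of interferon signalling, 5 were higher and 1, Jak1, was lower, with a median log2 fold change of 0.31. Over all genes tested the shares were 22.4% higher and 22.5% lower. Irf7, which amplifies interferon responses, rose 17.4-fold from 11.6 ± 1.39 to 202 ± 71.2 CPM (adjusted p = 7.2e-08). Stat2 and Irf9, which act in a complex that binds response elements, rose 3.27-fold (adjusted p = 1.0e-05) and 2.04-fold (adjusted p = 3.4e-05). Irf1, a direct activator of GBP genes, rose from 176 ± 19.4 to 371 ± 60.3 CPM (adjusted p = 4.9e-05). Irf8, a factor that microglia need for their development, had 218 ± 13.4 and 179 ± 23.5 CPM and did not pass (adjusted p = 0.077), though it passed without LPS mouse 2 (adjusted p = 0.035) and with scaling to library size alone (adjusted p = 0.039).

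Downstream of the GBPs, 6 of 9 tested genes of caspase-11 and inflammasomes were higher and 1, Nlrp3, was lower, with a median log2 fold change of 0.70. Shares over all genes tested were 22.4% higher and 22.5% lower. Casp4, the gene of caspase-11, rose from 25.8 ± 4.10 to 64.5 ± 12.2 CPM (2.50-fold, adjusted p = 2.0e-05). Casp1 rose 1.97-fold (adjusted p = 0.00019). Il1b, whose product caspase-1 cleaves, rose 29.0-fold (adjusted p = 5.5e-05), with LPS mice from 12.3 to 377 CPM, and 18.7-fold without LPS mouse 2. Gsdmd, which forms the pores of pyroptosis, had 207 ± 23.0 and 261 ± 19.1 CPM and passed narrowly (adjusted p = 0.044), and its call was lost in 11 of 23 alternative fits.

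Genes that modify or work with the GTPases came from 3 further lists. Of 6 enzymes of prenylation, the lipid tag that anchors Gbp2 and Gbp5 to membranes, Rce1 rose 1.64-fold (adjusted p = 0.0010), while Zmpste24 fell 1.52-fold (adjusted p = 0.0073) and Fnta 1.32-fold (adjusted p = 0.045). The Fnta call was lost in 13 of 23 alternative fits, and that of Rce1 once the trend over gene length was taken out (adjusted p = 0.063). The ATG8 conjugation machinery, which is needed to place GBPs and IRGs on vacuoles, held 11 tested genes, of which 2 were higher (Atg3 and Gabarap) and 2 lower (Map1lc3a and Atg12), against 22.4% and 22.5% of all genes. Atg3 rose from 19.7 ± 4.29 to 31.3 ± 8.79 CPM (adjusted p = 0.017, and 0.101 without that trend), and Map1lc3a fell from 15.4 ± 2.98 to 8.92 ± 3.01 CPM (adjusted p = 0.016). Atg12 fell 1.37-fold (adjusted p = 0.019), a call that 4 of the 10 fits without 1 mouse lost.

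Of 8 genes of ubiquitin at vacuoles 1 was higher (Rnf213) and 4 were lower (Traf6, Tax1bp1, Nbr1 and Optn). Rnf213, a ligase that marks bacteria and their LPS with ubiquitin, rose 2.81-fold from 56.1 ± 10.8 to 157.5 ± 35.3 CPM (adjusted p = 2.1e-05), and 4.86-fold with the trend over gene length taken out. The adaptors Tax1bp1 and Nbr1 fell 1.42-fold (adjusted p = 0.0061) and 1.47-fold (adjusted p = 0.0070), and neither passed once that trend was taken out (adjusted p = 0.099 and 0.177). Over all 49 pathway genes tested, 16 were higher and 10 lower, with a median log2 fold change of 0.075. With scaling to library size alone the counts were 14 and 14. These shares are to be read against the 22.4% higher and 22.5% lower over all genes.

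Genes with a profile like the mean profile of the 10 were ranked. The measure was the root mean square difference over the 10 libraries between their log2 CPM, relative to saline, and the mean of the 10 genes. That mean covers genes with log2 fold changes from -0.50 (Irgm2) to 2.21 (Gbp2), so a near gene need not resemble each of the 10. Among 9775 genes that averaged 5 CPM or more, the nearest given here were Nampt (0.181), which makes NAD, Trim30a (0.196), a TRIM family protein, Hsd17b12 (0.213), an enzyme of fatty acid elongation, and Slc31a1 (0.214), a copper transporter. Nampt was among the nearest 5 in each of the 10 rankings made without 1 library, Trim30a in 8, Hsd17b12 in 7 and Slc31a1 in 2. For Nampt the saline mean was 44.4 ± 3.47 CPM and the LPS mean 80.4 ± 15.2 CPM.

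Library totals ran from 11577295 to 15332121 counts. The sum of 8 microglial markers was 53215 to 60654 CPM in saline and 15791 to 28106 CPM in LPS. Monocyte markers (8 genes) summed to 13.4 to 21.3 CPM in saline and 78.1 to 219.7 CPM in LPS, with Ly6c2 at most 0.634 CPM. That sum was carried by Ms4a4c (mean 4.19 and 99.4 CPM) and Fn1 (0.198 and 34.4 CPM), both higher in LPS, as was F13a1 (0.594 and 7.67 CPM), while Ccr2 fell from 10.2 ± 2.93 to 2.45 ± 1.54 CPM (adjusted p = 0.00071) and Plac8 did not pass (adjusted p = 0.061). Neutrophil markers (8 genes) summed to 0.162 to 1.12 CPM in saline and 2.01 to 32.4 CPM in LPS. LPS mice 4 and 5 had 32.4 and 21.8 CPM, against 2.01 to 7.53 CPM in the other LPS mice. The genes of that list differed. LPS mouse 4 had reads of all 8, while LPS mouse 5 had no read of S100a9, Retnlg, Ngp or Camp. Its sum was mostly S100a8 (9.08 CPM), Mmp8 (7.83 CPM) and Cxcr2 (4.70 CPM). Cxcr2, the only neutrophil marker with enough counts to be tested, was second highest in LPS mouse 2 (6.99 CPM). Border macrophage markers (6 genes) summed to 9.84 to 14.8 CPM in saline and 24.0 to 42.8 CPM in LPS. That rise was carried by Siglec1 (mean 0.613 and 14.74 CPM) and Cbr2 (0.740 and 10.99 CPM). Mrc1 did not pass (10.28 and 7.32 CPM), and Lyve1, Cd163 and Pf4 had means below 1 CPM in both groups. All 8 T and NK cell markers had a mean below 1 CPM in both groups, and Cldn5 of endothelium and Pax5 of B cells had no read. The 7 endothelial markers summed to 53.1 to 78.8 CPM in saline and 6.42 to 12.2 CPM in LPS, nearly all of it Pecam1 (54.1 ± 10.3 and 7.05 ± 2.38 CPM, adjusted p = 3.6e-07) and Kdr (5.85 ± 1.38 and 2.37 ± 1.01 CPM, adjusted p = 0.0048). In the B cell list Cd79b had a mean of 96.8 CPM in saline and 93.1 CPM in LPS and did not pass. What these cells contributed to the values of the 10 genes was not tested.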

How the data were processed

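Of the RNA of sorted cells 5 ng was amplified (SMARTer ultra low), and 6 ng of product entered Ovation ultra low libraries, per the labels' protocols. The authors deposited raw counts per gene and RPKM tables. The submitters' processing notes name featureCounts, GRCm38 and mm10. No source used here states the aligner, the annotation or the use of strand. In the 5127 genes above 5 RPKM and 50 counts, the deposited RPKM was proportional to the count, by a factor of the library and a factor of the gene. Lower genes, such as Gbp5, Gbp8 and Iigp1, were not in that check. No molecular identifiers are described, so limits cover counting error only.

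The count test was that of edgeR 4.0.16 under R 4.3.3 (TMM, filterByExpr, quasi-likelihood F test, Benjamini-Hochberg over 13793 genes, threshold 0.05, no covariate), checked on simulated counts. Standard errors come from log2 CPM with a prior count of 2. Pair ratios used exact permutation tests (scipy 1.17.1, Python 3.11.15). Coordinates and promoters are RefSeq, GRCm38.p6. The 10 genes, lists and motifs were chosen with earlier results of these data known. Alternatives were RLE, upper quartile or library-size scaling, other filters, DESeq2 1.42.0, limma-voom, limma 3.58.1 on log2(RPKM + 1), ranges of mouse numbers as a term, protein-coding genes only, the gene-length trend removed, and each mouse left out. Named were the 10 genes, tested relatives, per list the 3 called genes of smallest adjusted p (the 2 highest where none was called) with Irf1, Irf8, Ifngr1, Ifngr2, Ifng, Casp4 and Gsdmd, and the 5 nearest profiles. An item of a list and of the nearest profiles is not reported here. Other genes given by value or by call were chosen after their values were seen.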

Additional observations from a re-analysis of the deposited data

Results flagged for a closer look

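Over 41 named genes the 5 mice of each group were checked for 1 mouse far from the others, by the gap to its nearest neighbour as a share of the group's range. Chance flags about 1 in 20 groups, and 4 of 82 groups were flagged. LPS mouse 5 had 323 CPM of Gbp7 against 524 to 594 CPM in the other LPS mice (gap share 0.74). LPS mouse 4 had 8.94 CPM of 9930111J21Rik1 against 2.15 to 3.42 CPM (0.814). LPS mouse 3 had 4.89 CPM of Irgq against 8.69 to 9.60 CPM (0.806). Saline mouse 1 had 32.7 CPM of Casp4 against 22.6 to 25.5 CPM (0.722).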

How the results depend on the processing

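Of the 10 genes, Gbp2, Gbp3, Gbp7, Igtp, Irgm1 and Iigp1 kept their call and direction in every alternative that tested them, and Gbp5, Gbp8 and Gbp9 never passed. The RPKM filter left out Gbp8 and Iigp1. The count of genes called lower was 0 without saline mouse 2 and 1 in all other fits. The sign of uncalled genes turned with the gene-length trend removed for Gbp9 (0.17), Gm12185 (0.19), Irgq (0.15) and Ifngr2 (-0.16), with scaling to library size alone for Ifngr2 (-0.00826), and without 1 mouse for Gm12185 (-0.44 to 0.15, positive without LPS mouse 5) and Gm4070 (-0.43 to 0.056, positive without LPS mouse 2 or 3). Pathway genes called lower numbered 6 with the gene-length trend removed and 6 on log2(RPKM + 0.1), against 10, with 14 under scaling to library size alone and 6 to 11 without 1 mouse. The cause was not tested. On log2(RPKM + 1), which understates low genes, the fold fell to 1.80 for Iigp1, 1.81 for F830016B08Rik, 2.64 for Gm1966 and 13.3 for Il1b. With 1 mouse left out, pairs with a changed ratio numbered 16 to 29, and on log2(RPKM + 1) they numbered 33. No paired analysis was possible because the labels pair no mice: the numbers 1 to 5 follow accession order, and nothing says what the mouse numbers in the titles share. With ranges of those title numbers as a term, the 10 genes kept their calls, 6 higher and 1 lower. Iigp1 and Gbp8 had as few as 5 and 3 reads in a library.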
